A study of Canis lupus familiaris with 4 samples.

Results

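The oxygen response of HIF1A knockdown (KD) cells was set against that of HIF1A wild-type (WT) cells, gene by gene, to find where the 2 responses differed. A response was the log2 value of the array labelled hypoxia minus that of the array labelled normoxia, each value being log2(intensity + 16). The difference of the responses, given throughout as the WT response minus the KD response, was taken for every probe set with an intensity of at least 100 in all 4 arrays. That floor kept 14326 of 42860 probe sets (33.4%), which covered 6363 of 15115 named genes. A gene was represented by its brightest probe set past the floor. Differences of at least 1, a 2-fold difference between the responses, were called and were found at 28 probe sets in the positive direction (0.195% of those used) and at 11 in the negative direction (0.0768%).

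The cells were MDCKII, an established epithelial line from dog kidney, measured on Affymetrix 3' arrays with biotin-labelled cRNA made from 100 ng of total RNA. The 4 groups had 1 array each and were labelled HIF1A KD in hypoxia, HIF1A KD in normoxia, HIF1A WT in hypoxia and HIF1A WT in normoxia. Cultures of all groups spent a first 24 h in normoxia, and the 24 h that followed were in hypoxia or in normoxia. How HIF1A was knocked down, whether the KD cells were 1 clone, and the oxygen level could not be taken from the labels. Since no group was repeated, no difference below has a replicate error or a test, and all are descriptions of these 4 arrays.

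HIF1A encodes the oxygen-regulated subunit of hypoxia-inducible factor. In normoxia prolyl hydroxylases mark this subunit for destruction, and in low oxygen it persists, pairs with ARNT and switches on genes of glucose uptake, glycolysis, lactate production, mitophagy, angiogenesis and collagen hydroxylation. In kidney epithelium this program shifts ATP production away from the mitochondria when oxygen is short.

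The targeted gene went against its own label. HIF1A read 625 in the array labelled KD hypoxia and 3435 in that labelled KD normoxia, against 675 in that labelled WT hypoxia and 3651 in that labelled WT normoxia. The KD response was -2.43 and the WT response -2.41, so their difference was 0.02. HIF1A thus separated the arrays by their oxygen label and not by their genotype label, and each direction given here follows the labels. KD hypoxia, KD normoxia, WT hypoxia and WT normoxia stand for the arrays so labelled. Of the 6 ways to exchange the labels of 2 arrays, 2 leave the difference of the responses as it is. They are the exchange of KD normoxia with WT hypoxia and that of KD hypoxia with WT normoxia. Under the exchange of KD normoxia with WT hypoxia, HIF1A would read 625 and 675 in KD cells, against 3435 and 3651 in WT cells. All KD and WT responses printed here would then change, and the summed oxygen and genotype contrasts described further on would trade places, while the difference of the responses would stay. No exchange was applied, and whether labels were exchanged was not tested. The other 4 exchanges turn the difference into the summed oxygen contrast or the summed genotype contrast, with or without a change of sign.

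The arrays were alike in overall level, with median intensities from 45.7 to 47.2. Of 9 kidney epithelial markers on the array 7 passed the floor, and the intensities of all 9 summed to between 35365 and 36538. The defining markers CDH1 (17.8 to 41.2) and CLDN2 (14.4 to 21.7) did not pass it. None of 5 fibroblast and 5 leukocyte markers did, with sums of 52.7 to 73.9 and 95.2 to 136.2. Of 5 endothelial markers 1, CDH5, passed it, at 104 to 178.

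Across the 14326 probe sets the difference of the responses was centred on 0, with a median of -0.01 and an SD over probe sets of 0.24. It lay between -0.60 and 0.67 for all but the lowest and highest 1%, and ran from -1.42 to 2.66 in all. Positive values made up 49.0% of the probe sets. The spread narrowed with brightness, with an SD of 0.29 in the dimmest and 0.17 in the brightest of 5 equal bins of mean intensity. The 28 positive differences of at least 1 were spread over the bins, with 5, 5, 6, 6 and 6 from dim to bright, and the negative ones numbered 3, 4, 2, 2 and 0. The scatter of the 2 responses shows most probe sets along the diagonal of equal response.

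**Figure D1:**
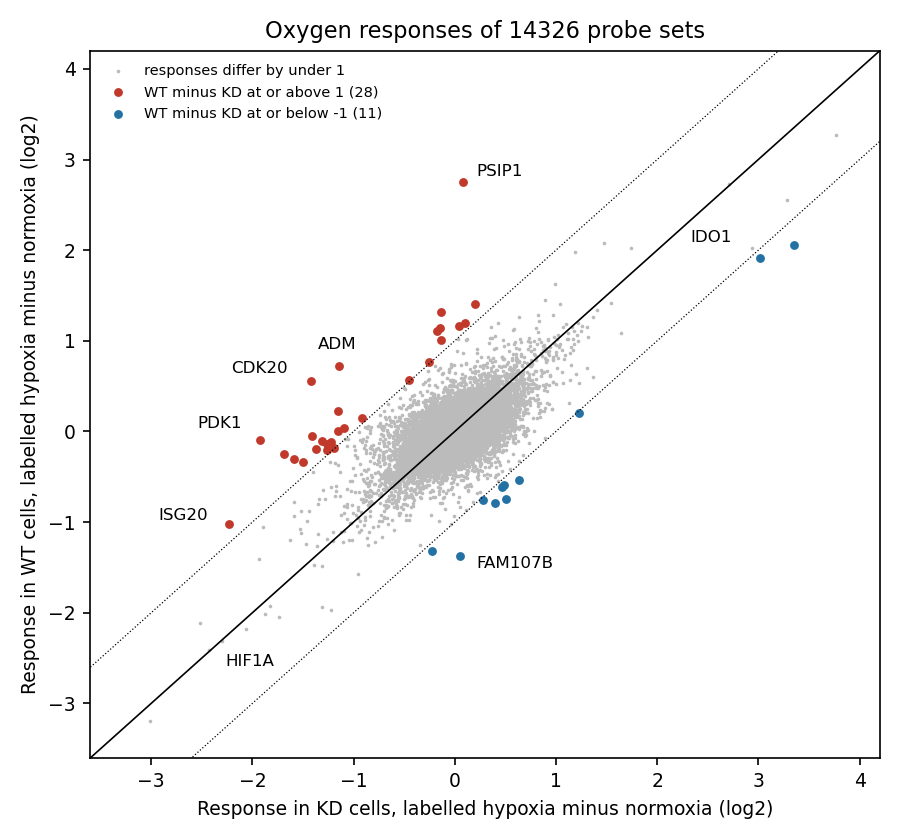
Each point is 1 probe set, with its response in KD cells on the horizontal axis and its response in WT cells on the vertical axis (log2, labelled hypoxia minus normoxia). The solid line marks equal responses and the dotted lines a difference of 1, and the 28 red points above and 11 blue points below lie at or past them.

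At the 28 probe sets with positive differences, the KD response was the lower one. It was at -0.5 or below in 18 and within 0.5 of 0 in the other 10, with a median of -1.15. The WT response was within 0.5 of 0 in 15, at 0.5 or above in 12 and at -0.5 or below in 1, with a median of 0.09. The responses had opposite signs at 12 of the 28 probe sets. In such bulk RNA, fewer cells expressing a gene and less RNA per cell cannot be told apart.

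These probe sets were next sorted by which array the widest gap in their 4 values set apart, a description chosen after the values had been seen. A positive difference adds up KD normoxia and WT hypoxia and subtracts the other arrays, so the threshold itself leaves few patterns possible and nothing is read from their shares. At 17 of the 28 the array labelled KD normoxia stood alone as the highest. The array labelled WT hypoxia stood alone as the highest at 5, the array labelled WT normoxia alone as the lowest at 5, and the array labelled KD hypoxia alone as the lowest at 1. Of the 21 named genes among the 28 probe sets, 11 belonged to the 9 lists of hypoxia and glycolysis genes described below, and 8 of these to glycolysis. These 11 were 16.2% of the 68 genes of the lists with a probe set past the floor, against 0.33% (21) of all 6363 genes. The lists were chosen with earlier results of these data known, and the 11 are among the 21, so nothing is read from these shares. At all 11 called probe sets of the list genes the array labelled KD normoxia stood alone as the highest, as it did at 3 of the 10 named ones outside the lists.

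Among the oxygen sensors, the prolyl hydroxylase EGLN1, which marks HIF1A for destruction, differed most. It read 369 in the array labelled KD hypoxia and 686 in KD normoxia, against 343 in WT hypoxia and 333 in WT normoxia. KD normoxia was the high array and the other 3 lay close together, and the responses of -0.87 in KD and 0.04 in WT cells differed by 0.91. EGLN2, another prolyl hydroxylase, differed by 0.03 at its brightest probe set and by 0.44 at a dimmer one. Of the 12 listed HIF subunits and sensors 3 passed the floor, and HIF1A was the third. EGLN3, a prolyl hydroxylase induced by hypoxia in human cells, did not pass it in 3 arrays, with 16.1 in KD hypoxia and 101 in KD normoxia, against 25.7 in WT hypoxia and 33.8 in WT normoxia, so no difference is given for it.

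Genes of glucose entry and upper glycolysis had a median difference of 0.51 over the 10 of 13 listed genes that passed the floor, against -0.01 over all 6363 genes. Positive values were found in 8 of the 10, against 47.3% of all genes, and 3 reached 1, against 0.22% of all genes. The glucose transporter SLC2A1 read 7353 in the array labelled KD hypoxia and 9259 in KD normoxia, against 7659 in WT hypoxia and 7822 in WT normoxia, a difference of 0.30. Its dimmer probe sets gave 0.50 and 0.94. The KD normoxia array was the highest at each of these 3 probe sets, while both WT arrays were close to each other.

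Glucose-6-phosphate isomerase (GPI), the second enzyme of glycolysis, read 2810 in KD hypoxia and 6003 in KD normoxia, against 1932 in WT hypoxia and 1885 in WT normoxia. Its responses were -1.09 in KD and 0.04 in WT cells, a difference of 1.13. PFKFB3 makes the activator of phosphofructokinase, the main control step of the pathway. It read 2243 in KD hypoxia and 5420 in KD normoxia, against 1944 in WT hypoxia and 2148 in WT normoxia, a difference of 1.12. ALDOC, an aldolase, read 773 in KD hypoxia and 2031 in KD normoxia, against 394 in WT hypoxia and 453 in WT normoxia, a difference of 1.18. In all 3 genes the array labelled KD normoxia held more than the other arrays by at least 2-fold, and the WT responses stayed between -0.19 and 0.04.

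The phosphofructokinase subunit PFKL differed by 0.64, with dimmer probe sets at 0.90 and 1.43, whereas the subunits PFKP and PFKM differed by 0.37 and 0.32. Aldolase A (ALDOA) differed by 0.70, and its dimmer probe set read 679 in KD hypoxia and 1829 in KD normoxia, against 619 in WT hypoxia and 643 in WT normoxia, a difference of 1.35. The hexokinases, which start the pathway, were the exceptions, with HK1 at -0.02 and HK2 at -0.15. SLC2A3, PFKFB2 and PFKFB4 did not pass the floor.

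Lower glycolysis and lactate genes had a median difference of 0.49, positive in 6 of the 6 members that passed the floor of 11 listed. None reached 1 at the brightest probe set, and 0 reached -1, against 0.0629% of all genes. GAPDH read 325 in KD hypoxia and 734 in KD normoxia, against 231 in WT hypoxia and 321 in WT normoxia. Both its responses were negative, -1.14 in KD and -0.45 in WT cells, and differed by 0.69. Phosphoglycerate kinase 1 (PGK1), which makes ATP in the pathway, read 5912 in KD hypoxia and 9891 in KD normoxia, against 4381 in WT hypoxia and 4642 in WT normoxia, a difference of 0.66. Triosephosphate isomerase (TPI1) gave 0.63, phosphoglycerate mutase 1 (PGAM1) 0.35, lactate dehydrogenase A (LDHA) 0.19 and enolase 1 (ENO1) 0.14. SLC16A3, which exports lactate, was below the floor in 3 arrays, with 63.1 in KD hypoxia and 137 in KD normoxia, against 42.5 in WT hypoxia and 64.5 in WT normoxia.

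ENO1 and LDHA, with the smallest values, also had the brightest probe sets of the group. ENO1 read 15397 in KD hypoxia and 17358 in KD normoxia, against 13115 in WT hypoxia and 13423 in WT normoxia. Its dimmest probe set past the floor read 208 in KD hypoxia and 658 in KD normoxia, against 120 in WT hypoxia and 152 in WT normoxia, and the difference there was 1.29. The probe sets in between gave 0.35 and 0.83. Of the 16 glycolysis genes past the floor 8 had both several probe sets and a brightest one at 0.1 or above. In all 8 the value was larger at every step down in intensity, 12 of 12 dimmer probe sets, by a median of 0.45 over the brightest. Of the 743 genes of the whole table chosen the same way, 339 of 1010 dimmer probe sets (33.6%) lay above the brightest. The part of intensity in these values was not tested.

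**Figure D2:**
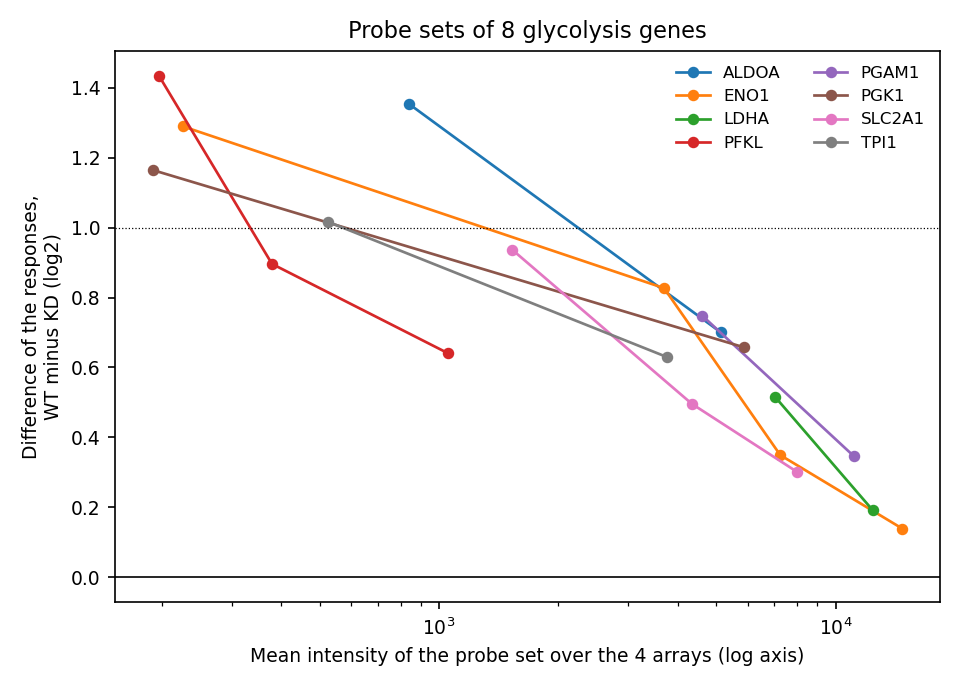
Difference of the responses (log2, WT minus KD) of each probe set past the floor for 8 glycolysis genes, against the mean intensity of the probe set over the 4 arrays on a log axis, with probe sets of 1 gene joined. Each line climbs toward the dim end, as in ENO1 with 0.14 at its brightest and 1.29 at its dimmest probe set.

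Counted over probe sets, 28 belonged to the 16 glycolysis genes. Of these 26 had a positive difference and 8 reached 1, with a median of 0.67 and a range from -0.15 to 1.43. The array labelled KD normoxia was the highest of the 4 at 26 of the 28, against 3775 of the 14326 probe sets used. That array is added in the difference of the responses, so this count is tied to the positive values and nothing is read from it. Probe sets of 1 gene share their transcript and are not independent.

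Control of pyruvate entry into mitochondria differed at 1 gene. The pyruvate dehydrogenase kinase PDK1, which shuts pyruvate out of the citric acid cycle, read 927 in KD hypoxia and 3568 in KD normoxia, against 455 in WT hypoxia and 488 in WT normoxia. The responses were -1.93 in KD and -0.10 in WT cells, and their difference of 1.83 was the third largest of any named gene by its brightest probe set. The kinase PDK3 differed by 0.21. The subunits of the dehydrogenase itself lay between -0.12 (PDHA1) and 0.28 (DLAT). Over the 7 of 11 listed genes past the floor the median was 0.15, and PDK2 and PDK4 did not pass it.

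Secreted factors gave a mixed picture, with a median of 0.02 over the 6 of 15 listed genes past the floor. Adrenomedullin (ADM), a vasodilator peptide, read 2017 in KD hypoxia and 4486 in KD normoxia, against 941 in WT hypoxia and 563 in WT normoxia. Both KD arrays were above both WT arrays, and the oxygen responses ran in opposite directions, -1.15 in KD and 0.72 in WT cells, for a difference of 1.87. The angiogenic factor VEGFA was nearly flat at 2380 in KD hypoxia and 2428 in KD normoxia, against 2281 in WT hypoxia and 2326 in WT normoxia, a difference of 0.00. The vasoconstrictor precursor EDN1 differed by 0.54, STC1 by 0.04, VEGFC by -0.22 and VEGFB by -0.23. ANGPTL4 did not pass the floor in the WT arrays.

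Intracellular hypoxia genes, a list of mitophagy receptors, transcription factors and enzymes, had a median of 0.41 over 18 of 25 listed genes. Of these 14 were positive, against 47.3% of all genes. The mitochondrial adenylate kinase AK4 read 1405 in KD hypoxia and 2657 in KD normoxia, against 1170 in WT hypoxia and 1058 in WT normoxia, a difference of 1.06. ZNF395 read 155 in KD hypoxia and 347 in KD normoxia, against 105 in WT hypoxia and 113 in WT normoxia, and stayed just short of 1 before rounding. The mitochondrial protein FAM162A (0.81), the mTOR inhibitor DDIT4 (0.77) and the oxidoreductase ERO1A (0.63) followed. Of the 18 genes 13 were highest in the array labelled KD normoxia, against 26.4% of all genes. That array is added in the difference of the responses, so positive differences favour it as the highest. Nothing is read from this share.

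Members of this list differed in whether genotype label and oxygen label added up. NARF read 1171 in KD hypoxia and 1158 in KD normoxia, against 613 in WT hypoxia and 627 in WT normoxia. Both KD arrays were thus above both WT arrays, by like amounts, and the responses differed by -0.05. ANKRD37 read 688 in KD hypoxia and 766 in KD normoxia, against 198 in WT hypoxia and 160 in WT normoxia, with a difference of 0.44. The mitophagy receptor BNIP3L read 823 in KD hypoxia and 2029 in KD normoxia, against 378 in WT hypoxia and 641 in WT normoxia. Both its responses were negative, -1.29 in KD and -0.74 in WT cells, and differed by 0.55. The corepressor subunit SAP30 (-0.25) had the lowest value of the list. For KDM3A, a histone demethylase, the probe sets disagreed, with 0.38 at the brightest and -0.36 at another.

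Collagen modification genes were positive in 7 of 7 members past the floor of 11 listed, against 47.3% of all genes, with a median of 0.13. The prolyl 4-hydroxylase subunit P4HA1, which hydroxylates collagen, stood out with 649 in KD hypoxia and 1164 in KD normoxia, against 347 in WT hypoxia and 335 in WT normoxia. Its difference was 0.87, and 0.54 at a dimmer probe set. The other members lay between 0.06 (P4HB) and 0.24 (LOXL2).

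Of the pH control genes 5 of 8 passed the floor, with a median of 0.20. The membrane-bound carbonic anhydrase CA14 read 531 in KD hypoxia and 1633 in KD normoxia, against 237 in WT hypoxia and 418 in WT normoxia, for a difference of 0.81. The cytosolic carbonic anhydrase CA2 differed by 0.37, 0.56 and 0.66 at its 3 probe sets. CA9, a widely used hypoxia marker in human tumours, lay just above the floor at 104.8 to 112 in all 4 arrays and differed by 0.01. Glycogen genes had a median of -0.06 over 6 of 10 listed genes, with the branching enzyme GBE1 at 0.49.

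**Figure D3:**
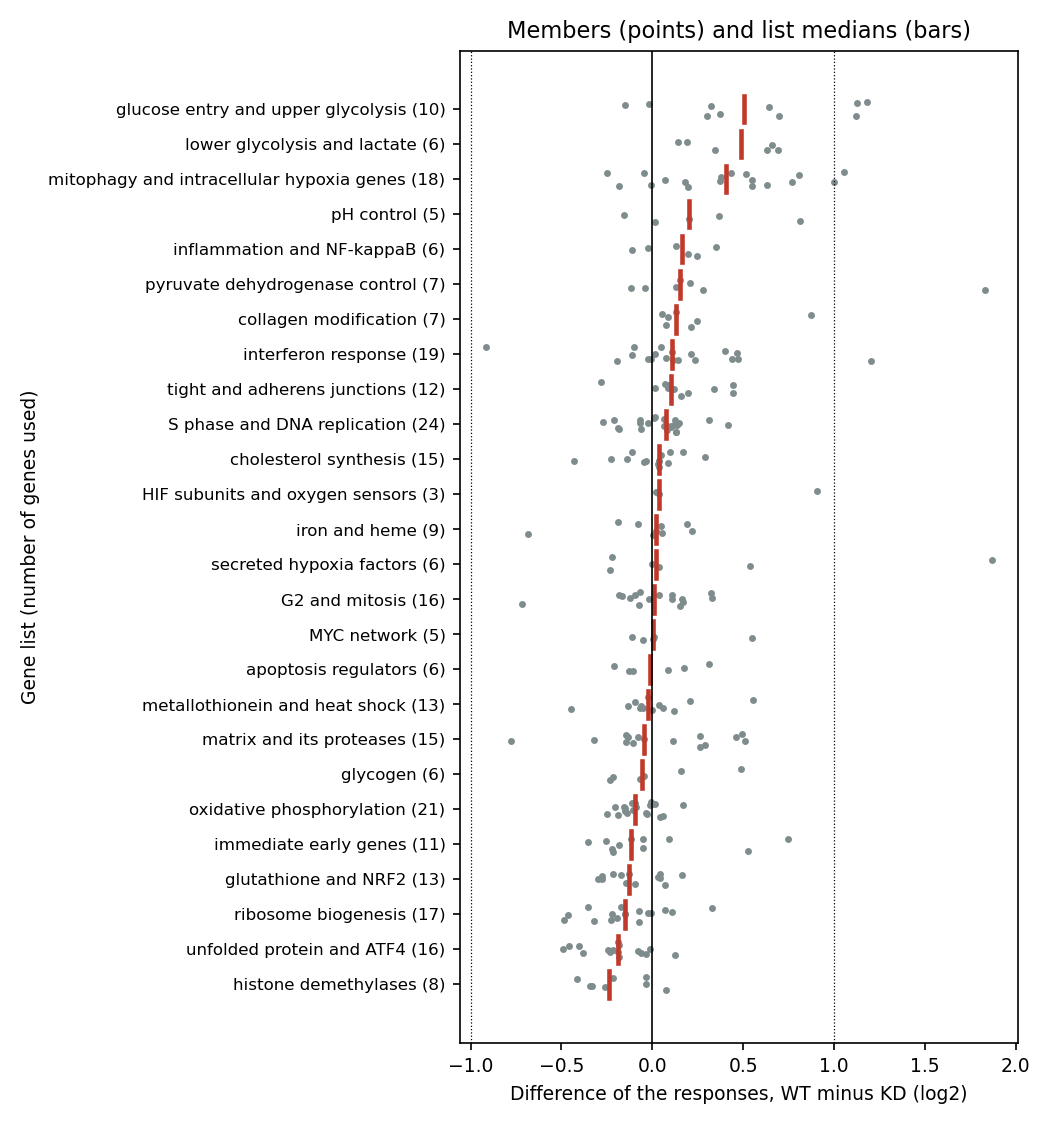
Differences of the responses (log2, WT minus KD) of the members past the floor of 26 gene lists, 1 grey point a gene, with red bars at list medians and the number of genes in brackets. The medians of upper glycolysis (0.51), lower glycolysis (0.49) and intracellular hypoxia genes (0.41) lie farthest to the right, and histone demethylases (-0.24) farthest to the left.

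Some lists lay on the negative side by smaller amounts, with no member at -1 or below. Of all 6363 genes 3356 were negative, and 0.0629% were at -1 or below. Genes of the unfolded protein response and of ATF4, which answer misfolded protein and lack of amino acids, were negative in 15 of 16 members, with a median of -0.19. The pseudokinase TRIB3 gave -0.49, the transcription factor DDIT3 -0.46, the folate enzyme MTHFD2 -0.40 and the phosphatase regulator PPP1R15A -0.38. MTHFD2 read 1299 in KD hypoxia and 977 in KD normoxia, against 1271 in WT hypoxia and 1266 in WT normoxia. The array labelled KD normoxia was the lowest in 13 of the 16 genes, against 33.7% of all genes. That array is added in the difference of the responses, so a low value there goes with a negative difference. Nothing is read from this share, nor from those of the ribosome and glutathione lists below.

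Ribosome biogenesis genes were negative in 14 of 17 members, with a median of -0.15, and the array labelled KD normoxia was the lowest in 14 of the 17. The ribosome assembly factor WDR74 read 879 in KD hypoxia and 623 in KD normoxia, against 959 in WT hypoxia and 960 in WT normoxia, a difference of -0.49. UTP15 gave -0.46 and the nucleolar protein NOP56 -0.36, while PES1 gave 0.33. Of the 13 glutathione and NRF2 genes 8 were negative (median -0.13), near the share over all genes. The array labelled KD normoxia was the lowest in 10 of the 13. Oxidative phosphorylation genes were negative in 17 of 21 members with a median of -0.10. A list of oxygen-using Jumonji histone demethylases was negative in 7 of 8 members (median -0.24), without KDM3A, which was counted among the intracellular hypoxia genes at 0.38. It was led by JMJD6 at -0.42 with 658 in KD hypoxia and 489 in KD normoxia, against 496 in WT hypoxia and 495 in WT normoxia.

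Outside the 9 hypoxia and glycolysis lists, the largest value of a named gene by its brightest probe set was that of the cyclin-dependent kinase family member CDK20. It read 125 in KD hypoxia and 363 in KD normoxia, against 200 in WT hypoxia and 131 in WT normoxia. The responses were -1.42 in KD and 0.56 in WT cells, a difference of 1.98, and a second probe set gave 0.60. The chloride-proton exchanger CLCN4 read 185 in KD hypoxia and 432 in KD normoxia, against 131 in WT hypoxia and 109 in WT normoxia, a difference of 1.38. The interferon-induced exonuclease ISG20 read 195 in KD hypoxia and 971 in KD normoxia, against 152 in WT hypoxia and 326 in WT normoxia. Both responses of ISG20 were strongly negative, -2.23 in KD and -1.02 in WT cells, for a difference of 1.20.

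A few positive differences came from another array. TXNIP, an inhibitor of glucose uptake and of thioredoxin, read 1163 in KD hypoxia and 2728 in KD normoxia, against 2302 in WT hypoxia and 2497 in WT normoxia, a difference of 1.10. Here the array labelled KD hypoxia was the low one. The double-stranded RNA-binding protein STAU2 read 261 in KD hypoxia and 224 in KD normoxia, against 465 in WT hypoxia and 166 in WT normoxia, a difference of 1.20. The autophagy protease ATG4B read 127 in KD hypoxia and 117 in KD normoxia, against 302 in WT hypoxia and 123 in WT normoxia, a difference of 1.09. In STAU2 and ATG4B the array labelled WT hypoxia was the high one. The peptidase DPP4 read 619 in KD hypoxia and 683 in KD normoxia, against 598 in WT hypoxia and 290 in WT normoxia, so that the array labelled WT normoxia was the low one. Its difference was 1.15, and 0.69 at another probe set.

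**Figure D4:**
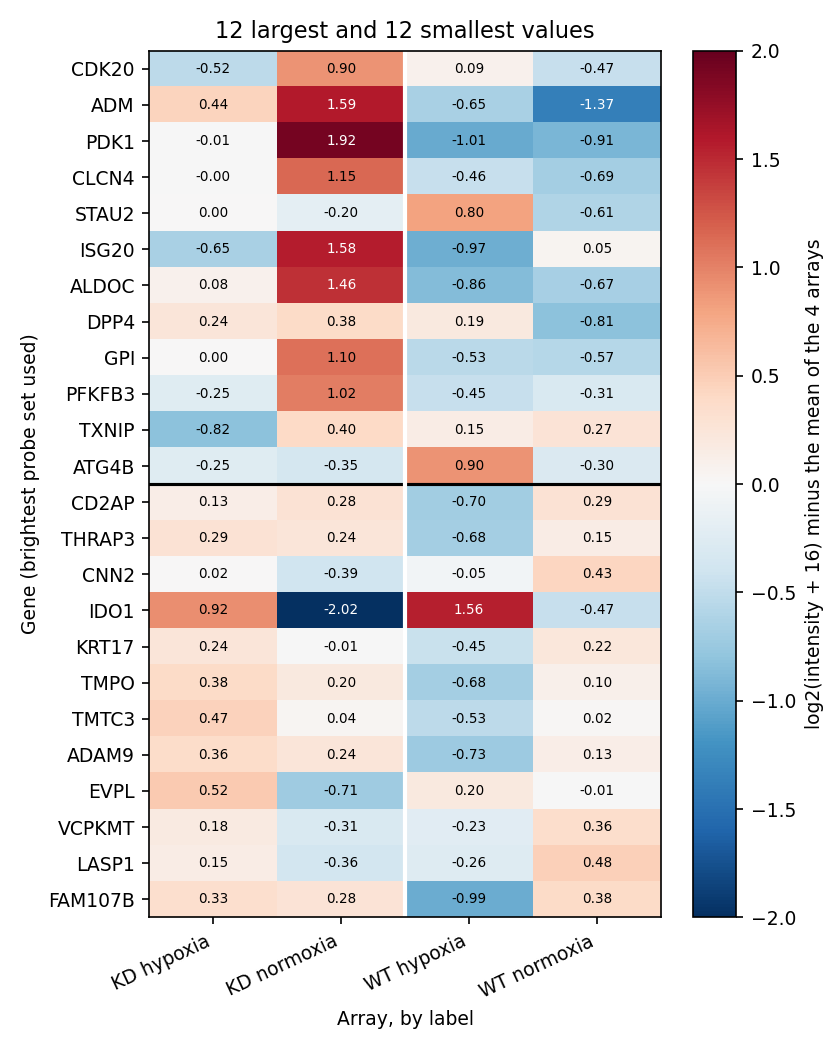
The 12 largest (above the line) and 12 smallest differences of the responses among named genes, with columns for the 4 arrays by label. Colours and numbers give log2(intensity + 16) minus the mean of the gene's 4 values, and the column of KD normoxia is the highest one in the upper block for genes such as PDK1, ADM and GPI.

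The negative differences came from several arrays. FAM107B had the most negative value, -1.42, with 944 in KD hypoxia and 912 in KD normoxia, against 368 in WT hypoxia and 979 in WT normoxia. The array labelled WT hypoxia alone was low. The same array was low in ADAM9, a membrane metalloprotease, with 1209 in KD hypoxia and 1115 in KD normoxia, against 558 in WT hypoxia and 1027 in WT normoxia, a difference of -0.98. It was also low in the nuclear lamina protein TMPO (-0.96), TMTC3 (-0.97), the keratin KRT17 (-0.92), the splicing factor THRAP3 (-0.88) and the adaptor CD2AP (-0.84). The dimmer probe set of ADAM9 gave -0.55, and those of TMPO gave -0.81 and 0.35.

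The actin-binding protein LASP1 read 185 in KD hypoxia and 125 in KD normoxia, against 135 in WT hypoxia and 237 in WT normoxia, a difference of -1.25. The methyltransferase VCPKMT (-1.08) had the same order of arrays, with KD hypoxia and WT normoxia above the others. The cornified envelope protein EVPL read 380 in KD hypoxia and 153 in KD normoxia, against 303 in WT hypoxia and 260 in WT normoxia, a difference of -1.02. In EVPL the array labelled KD normoxia was the low one. CNN2, an actin-binding calponin, gave -0.89.

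IDO1, which breaks down tryptophan, had large responses in both genotypes as labelled. It read 6471 in KD hypoxia and 829 in KD normoxia, against 10053 in WT hypoxia and 2461 in WT normoxia. The responses were 2.94 in KD and 2.02 in WT cells and differed by -0.92, and its other probe sets gave -0.73 and -0.49. Its oxygen sum was 4.96 and its genotype sum -2.19, values that trade places if KD normoxia and WT hypoxia are exchanged. A pair of probe sets with no gene name also had large positive responses in both genotypes. Their genotype sums of 2.08 and 1.71 were opposite in sign to that of IDO1. The brighter of the pair read 4509 in KD hypoxia and 427 in KD normoxia, against 1386 in WT hypoxia and 321 in WT normoxia. Its responses were 3.35 in KD and 2.06 in WT cells, with a difference of -1.30, and the other of the pair gave -1.11.

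Several called probe sets were not matched by other probe sets of their gene. They are named here because they passed 1, outside the rule for named genes and after their values had been seen. The highest value of all, 2.66, came from a probe set of PSIP1, a chromatin-binding protein, with 293 in KD hypoxia and 275 in KD normoxia, against 1530 in WT hypoxia and 214 in WT normoxia. The brighter PSIP1 probe set read 2304 in KD hypoxia and 1940 in KD normoxia, against 1958 in WT hypoxia and 1490 in WT normoxia, and gave 0.14. CMPK1 gave 1.29 at one probe set and 0.15 at its brightest. On the negative side KPNA3 gave -1.18, against 0.03 and -0.44 at its other probe sets, and URI1 gave -1.08, against 0.01 at each of its others. MACF1 gave -1.16, against values from -0.23 to 0.09.

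Other probe sets of the called genes were compared by the array that stood apart. Of the 14 called genes in which KD normoxia alone was the highest, 6 had other probe sets past the floor, namely CDK20 and the glycolysis genes PFKL, ALDOA, ENO1, PGK1 and TPI1. Of these, 9 of 9 other probe sets had the same sign and 7 were at 0.5 or above, in a range from 0.14 to 0.90. ADM, PDK1, GPI, ALDOC, PFKFB3, ISG20, CLCN4 and AK4 had no other. The other positive patterns left 1 of 1 probe set of the same sign (0.14) where WT hypoxia was the highest and 2 of 2 (0.15 and 0.69) where WT normoxia was the lowest. Of the 7 genes at -1 or below 3 had others, of which 4 of 8 probe sets had the same sign and 0 reached 0.5 in size. In these counts the other probe sets were those not called, whereas below they are those not the brightest. Over all 3000 genes with several probe sets past the floor, 2529 of 4063 other probe sets (62.2%) had the sign of the brightest. Of the 4063, 3973 belonged to genes whose brightest value was under 0.5 from 0. Where it was 0.5 to 1 from 0, 68 of 88 (77.3%) had its sign. The difference of the responses correlated between the brightest and the other probe sets of a gene with r = 0.37 across 4063 probe sets, which share the 4 arrays. The corresponding r was 0.75 for the summed oxygen contrast and 0.60 for the summed genotype contrast.

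Both summed contrasts reached further than the difference of the responses. They add the same 4 arrays with other signs, so that all 3 contrasts carry the same weights and share every array. The labelled oxygen effect summed over genotypes (hypoxia minus normoxia) passed 1 at 821 probe sets (5.73%), with 415 up (2.9%) and 406 down (2.83%), with an SD over probe sets of 0.53. The labelled genotype effect summed over oxygen levels (KD minus WT) passed 1 at 706 (4.93%), with 377 up (2.63%) and 329 down (2.3%), with an SD of 0.50. The difference of the responses passed 1 at 39 (0.272%), with an SD of 0.24. Of its 28 positive probe sets 20 also had a genotype sum of at least 1, and 14 an oxygen sum of -1 or below.

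**Figure D5:**
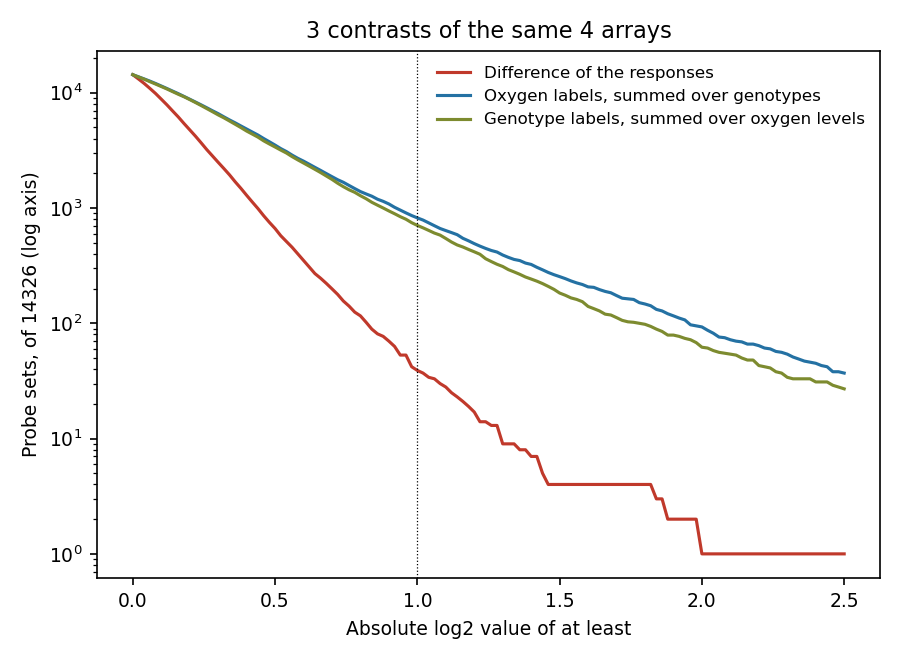
Number of probe sets (log axis) whose absolute value reaches the size on the horizontal axis (log2), for 3 contrasts of the same 4 arrays. At the dotted line at 1 the difference of the responses has 39 probe sets, the oxygen sum 821 and the genotype sum 706.

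Probe sets on both sides of the thresholds were close in value. Just inside the positive threshold lay CSNK1G2, an unnamed probe set and the dimmer probe set of TPI1, all at 1.02. ZNF395, at 0.9995, and 2 unnamed probe sets, both at 0.99, lay just outside it. Just inside the negative threshold lay EVPL (-1.02), an unnamed probe set (-1.03) and VCPKMT (-1.08), and just outside it ADAM9, PIP4K2A (both -0.98) and TMTC3 (-0.97). The 500 probe sets just inside the floor had an SD of 0.32, with 2 at 1 or above and 0 at -1 or below. The 500 just outside it also had an SD of 0.32, with 1 in each direction.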

How the data were processed

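The authors deposited a linear intensity for each probe set, 1 column per array. How these were background-corrected and scaled, and with which software, is not given in the sources used here. Trimmed means (2% off each end) ran from 310.9 to 315.3 per array, so the columns were at a like level. Values were turned to log2(intensity + 16), which understates differences of dim probe sets, and 64 control probe sets were left out. Gene names came from the platform annotation, with 27680 of 29254 single-symbol probe sets matched by gene ID and 0 symbols updated. Of the probe sets used 10426 had 1 symbol, 233 several and 3667 none.

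Named genes were HIF1A, the 12 with the largest and the 12 with the smallest difference by brightest probe set, members of 9 hypoxia and glycolysis lists, and the 4 most different members of the other 17 lists. Some others, such as PSIP1 and MX1, were named outside this rule. The members, the lists and the rule were chosen with earlier results of these data known. The contrast leaves 0 residual degrees of freedom, so no test was run, and 4 arrays set the limit of precision. Alternatives were 3 scalings (with limma 3.58.1 in R 4.3.3 for cyclic loess and quantile scaling), pseudocounts of 1 and 64, other floors, other fold thresholds and 1 value per gene. Python 3.11.15 ran all other steps. The difference of the responses and the sorting by array were first tested on simulated data.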

Additional observations from a re-analysis of the deposited data

Results flagged for a closer look

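Opposite responses in KD and WT cells were looked for among 153 genes, namely HIF1A, the 24 genes with extreme differences, the called ones and the members of gene lists open to naming. In 14 of the 153 (9.2%) the signs were opposite and each response was at least 0.20 from 0. That cut is the robust SD of the difference over probe sets, and 87 of all 6363 genes (1.37%) met the same rule. Many of the 153 were chosen for a large difference, which favours opposite responses, so nothing is read from that share. With 1 array a group, none of these differences between the genotypes was tested. The opposite directions are given as labelled, and both responses would change if KD normoxia and WT hypoxia were exchanged. The difference of the responses would stay. The difference of the responses, WT minus KD, was positive in 6, where the response was negative in KD and positive in WT cells. These were CDK20 (1.98), ADM (1.87), CLCN4 (1.38), the kinase CSNK1G2 (1.02), the transcription factors EGR1 (0.75) and BHLHE41 (0.52). It was negative in 8, where the response was positive in KD and negative in WT cells. These were LASP1 (-1.25), VCPKMT (-1.08), TMTC3 (-0.97), KRT17 (-0.92), CNN2 (-0.89), SLC11A2 (-0.68), TRIB3 (-0.49) and UTP15 (-0.46).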

How the results depend on the processing

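The 28 positive and 11 negative probe sets past 1 were all kept under quantile scaling, median centring and cyclic loess. Lower floors gave 44 positive and 30 negative at 50 in all arrays, 865 and 864 with no floor, and 42 and 26 at a mean intensity of at least 100. A floor of 200 gave 19 and 4, and a pseudocount of 64 gave 24 and 4. Thresholds of 1.5-fold gave 221 and 166, and of 3-fold 4 and 0. With 1 value per gene the counts were 14 and 4 by the brightest probe set and 15 and 4 by the median. The oxygen sum passed 1 at 3145 probe sets with no floor, and the genotype sum at 3229 with no floor and at 416 with a floor of 200. The cause of these shifts was not tested, beyond the change in how many probe sets or genes were counted. Medians of the MYC network (-0.02 to 0.01) and of G2 and mitosis genes (-0.01 to 0.02) changed sign between scalings. The median of the inflammation list was 0.16, against -0.08 with no floor. The median of HIF subunits and sensors was 0.03, against 0.27 at a floor of 50 or with none and 0.24 by the median of probe sets. The medians of both glycolysis lists lay between 0.35 and 0.70 under every alternative run. No paired analysis was possible because each group holds 1 array.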

Other observations

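Genes of epithelial junctions were positive in 11 of 12 members past the floor, with a median difference of the responses of 0.10 (WT minus KD). The claudins CLDN3 and CLDN4, which seal tight junctions, gave 0.44 each and the desmosomal linker DSP 0.34, while cingulin (CGN) gave -0.28. CLDN3 read 169 in KD hypoxia and 322 in KD normoxia, against 163 in WT hypoxia and 225 in WT normoxia. Interferon response genes were positive in 13 of 19 members (median 0.11), in a range from -0.92 in IDO1 to 1.20 in ISG20. Over all 6363 genes 47.3% were positive. USP18 and IRF9 gave 0.47 each and MX1 0.44. MX1, an antiviral GTPase, read 2839 in KD hypoxia and 2270 in KD normoxia, against 2876 in WT hypoxia and 1695 in WT normoxia, so the array labelled WT normoxia was the lowest.

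Cholesterol synthesis genes had a median of 0.03, with 9 of 15 members positive, against 47.3% of all genes. The array labelled KD normoxia was the highest in 13 of the 15, against 26.4% of all genes. The list had a median genotype sum of 0.67 and a median oxygen sum of -0.30. It was chosen with earlier results of these data known, so nothing is read from this share. Squalene epoxidase (SQLE) read 7813 in KD hypoxia and 9564 in KD normoxia, against 6625 in WT hypoxia and 7856 in WT normoxia, a difference of 0.05. Among immediate early genes EGR1 gave 0.75 and JUN 0.52, against a list median of -0.12. The laminin chain LAMB3 gave -0.78 at its brightest probe set and 0.02 at another. The centromere protein CENPF gave -0.72 and 0.01. The iron transporter SLC11A2 gave -0.68 and -0.82 at its probe sets.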
